A study of Mus musculus with 2 samples.

Results

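Conventional type 2 dendritic cells (cDC2) were taken from single-cell RNA data of liver immune cells of mice with S-100 induced autoimmune hepatitis. They numbered 299 of the 27478 barcodes that passed the filters on genes, mitochondrial and haemoglobin unique molecular identifiers (UMIs), and of 49230 deposited barcodes. Of them, 130 came from the KO library and 169 from the WT library. A cell counted as cDC2 with at least 10 UMIs of the class II genes H2-Aa, H2-Eb1 and Cd74 together and at least 2 UMIs of Flt3, Zbtb46 and Cd209a together. It had to carry no UMI of Xcr1 or Clec9a (type 1 dendritic cells, cDC1), Siglech (plasmacytoid dendritic cells), Cd3e (T cells), Cd79a or Ms4a1 (B cells), and at most 3 UMIs of the migratory genes Ccr7, Fscn1 and Ccl22. The cells were thus chosen on their own measured RNA, and the genes of the rule are described below without being counted as results.

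cDC2 take up antigen in tissues such as the liver and present it on major histocompatibility complex (MHC) class II to CD4 T cells, while cDC1 are known for presentation on class I to CD8 T cells. cDC2 depend on the growth factor receptor FLT3 and on IRF4, and are recognised by SIRPα and CD11b. Like other phagocytes they respond to interferon-γ from T and NK cells: the receptor signals to the nucleus, which induces the transcription factor IRF1, GTPases that act against intracellular microbes, CXCR3 ligands and the class I presentation genes.

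The KO library came from Alb-Cre Bicd2 fl/fl mice, in which Cre under the albumin promoter acts in hepatocytes, and the WT library from Alb-WT Bicd2 fl/fl mice. Both genotypes therefore carried floxed Bicd2 alleles, and both were immunized with 2.5 mg of S-100, the soluble fraction of liver homogenate, emulsified with complete Freund's adjuvant and injected intraperitoneally in each of 3 weeks. Per the series text, liver leukocytes were collected on a Percoll gradient, red cells were lysed and living cells were sorted and pooled. The number, age and sex of the mice are not given in the sources used here. The sample labels go against the series text: they name peritoneal cells, and their treatment tag is HFD.

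The data were 3' UMI counts of 1 library per genotype, with 63869430 UMIs in KO and 81159013 UMIs in WT. No test across mice exists, no p-value is given, and every 95% interval below accounts for counting error alone. It does not cover UMIs of a gene that come together in few cells. Levels are UMIs summed over the member cells per 1000000 of their UMIs (CPM). KO cDC2 held 880150 UMIs (median 6657 per cell, range 1230 to 19487) and WT cDC2 1159394 UMIs (median 6464, range 629 to 24083), with medians of 2650.5 and 2652 genes. Depth per member cell was thus close between the libraries, whereas all filtered barcodes had medians of 1747.5 UMIs in KO and 2462 UMIs in WT. The libraries shared 177 barcode sequences, none of them a member. Bicd2, an adaptor of the dynein motor and the deleted gene, had 16 UMIs in KO and 40 UMIs in WT cDC2 (0.527 times the WT level in CPM, interval 0.275 to 0.962). Dendritic cells do not use the albumin promoter, so this value does not check the genotype.

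The markers of the label were present in both libraries. Flt3, the growth factor receptor, was at 404 CPM in KO and 405 CPM in WT, and Zbtb46, a transcription factor restricted to conventional dendritic cells among leukocytes, at 307 CPM in KO and 301 CPM in WT. Both are genes of the rule. Outside the rule, Zfp366 (DC-SCRIPT, a dendritic cell nuclear factor) was at 168 CPM in KO and 224 CPM in WT and Rtn1, a reticulon of the endoplasmic reticulum, at 623 CPM in KO and 345 CPM in WT. A UMI of Zfp366 was found in 63 KO cells (48.5%) and 97 WT cells (57.4%), and of Rtn1 in 105 KO cells (80.8%) and 107 WT cells (63.3%). The share of cells with neither was 13.1% in KO (17 of 130) and 23.1% in WT (39 of 169).

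The same cells were set beside cDC1 (81 KO and 184 WT cells with at least 2 UMIs of Xcr1 and Clec9a). A list of 17 further cDC2 genes outside the rule summed to 4598 CPM in KO and 4761 CPM in WT cDC2. In cDC1 that sum was 2415 CPM in KO and 2366 CPM in WT. The sum of Zfp366 and Rtn1 lay closer, at 791 CPM in KO and 569 CPM in WT cDC2, against 517 CPM in KO and 520 CPM in WT cDC1. Sirpa, which encodes SIRPα, was at 293 CPM in KO and 279 CPM in WT cDC2, against 37 CPM in KO and 84.4 CPM in WT cDC1. Itgam, the CD11b gene, was at 197 CPM in KO and 158 CPM in WT cDC2, against 25.1 CPM in KO and 57.3 CPM in WT cDC1. The cDC1 genes showed the other order as a sum. The 8 genes of the cDC1 list outside the rule summed to 1320 CPM in KO and 1126 CPM in WT cDC2. In cDC1 that sum was 6087 CPM in KO and 4795 CPM in WT. Irf8, the transcription factor on which cDC1 depend, was at 124 CPM in KO and 279 CPM in WT cDC2 and 1860.1 CPM in KO and 1865 CPM in WT cDC1, and the adhesion molecule gene Cadm1 at 42 CPM in KO and 39.7 CPM in WT cDC2 and 925 CPM in KO and 788 CPM in WT cDC1. Classical monocytes (309 KO and 882 WT cells, Csf1r with Ly6c2 or Ccr2) carried far more of Fn1 (fibronectin), at 1323 CPM in KO and 606 CPM in WT, against 63.6 CPM in KO and 58.7 CPM in WT cDC2. The list of 17 further cDC2 genes did not set monocytes apart in KO, where it summed to 4808 CPM, against 3159 CPM in WT monocytes. These types were set apart by rules on genes, so the differences between them are descriptions.

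**Figure D1:**
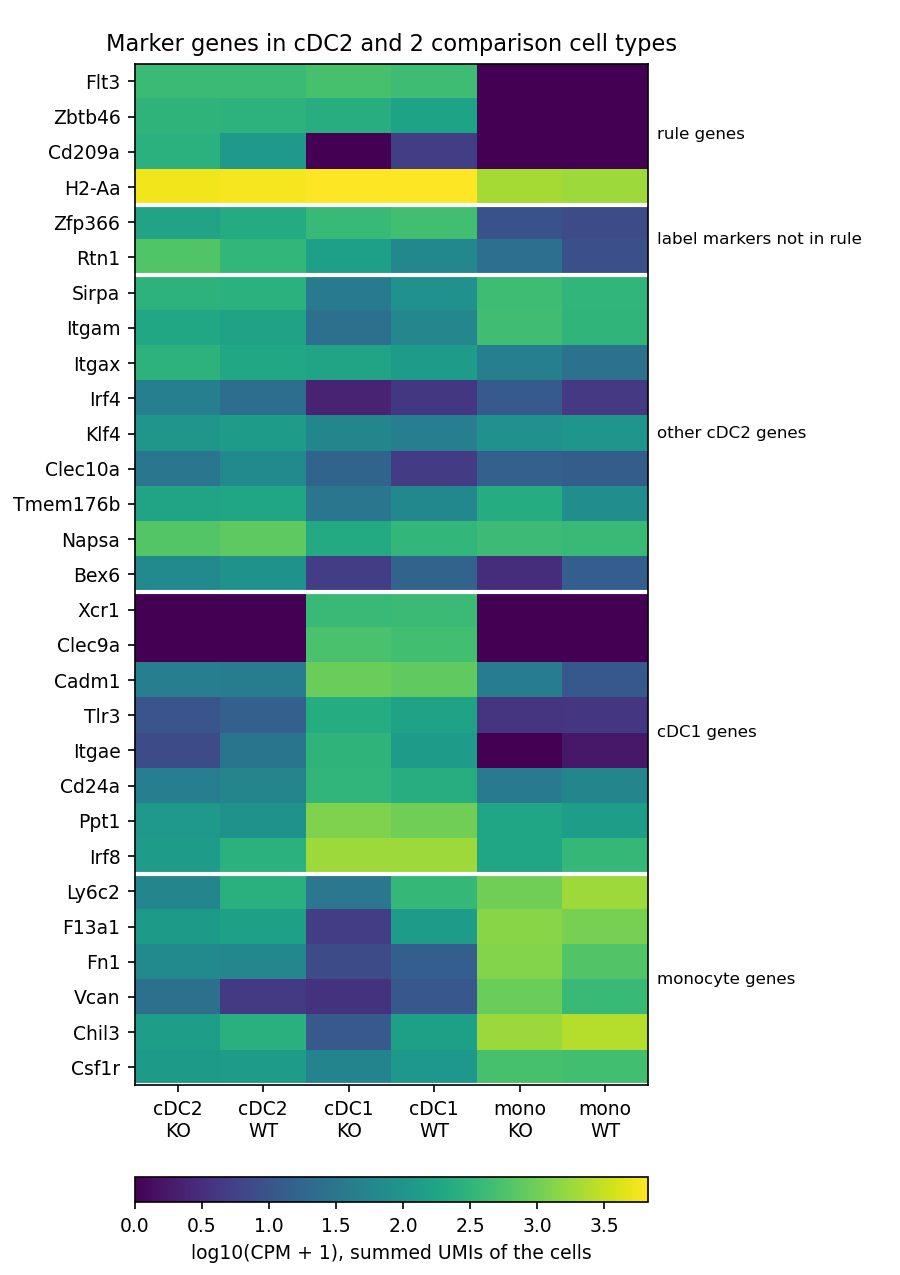
Marker genes in cDC2, cDC1 and classical monocytes (mono), each as the KO library left of the WT library. Colour is log10 of CPM plus 1. Flt3 and Zbtb46 read 404 and 307 CPM in KO cDC2 and 405 and 301 CPM in WT cDC2, and 0 in monocytes, where the rule sets them to 0.

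The genes by which members met the rule differed in frequency between the libraries. Flt3 had a UMI in 108 KO cells (83.1%) and 142 WT cells (84.0%), and Zbtb46 in 91 (70%) and 124 (73.4%). Cd209a, a C-type lectin of the DC-SIGN family, had one in 70 KO cells (53.8%, exact binomial interval 44.9 to 62.6) and 44 WT cells (26.0%, interval 19.6 to 33.3). Its level was 278 CPM in KO (Poisson interval 245 to 315) and 111 CPM in WT (92.9 to 132). After thinning every cell to 1000 UMIs, 23.8% of KO and 9.76% of WT cDC2 held a UMI, against 0.387% and 0% of KO and WT B cells. Cells that met the rule by Flt3 alone numbered 14 in KO and 41 in WT, and cells with all 3 genes 39 and 29. Because Cd209a is part of the rule, its difference is a description of the members, and the members are described by Cd209a further below.

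Near the thresholds, 21 KO and 45 WT members had exactly 2 UMIs of Flt3, Zbtb46 and Cd209a, while 35 KO and 79 WT barcodes that met every other criterion had 1 and stayed outside. Between 10 and 14 class II UMIs were held by 5 KO and 11 WT members, and 3 KO and 15 WT barcodes with 5 to 9 stayed outside. The migratory criterion left out 6 KO and 10 WT barcodes with 4 or more UMIs. Class II UMIs per member had a median of 118.5 (range 10 to 387) in KO and 111 (10 to 476) in WT, far above the threshold of 10.

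cDC2 made up 1.20% of filtered barcodes in KO (130 of 10812, exact binomial interval 1.01 to 1.43) and 1.01% in WT (169 of 16666, interval 0.868 to 1.18). The ratio of KO to WT shares was 1.19 (counting interval 0.945 to 1.49), so no difference in share was detectable beyond counting error. With at most 1% haemoglobin UMIs per barcode in place of 10%, 96 of 1172 KO barcodes and 150 of 11661 WT barcodes were cDC2, a log2 ratio of 2.67. It was 0.76 when every cell was thinned to 2000 UMIs before the rule (88 of 4642 KO and 110 of 9828 WT barcodes), and 0.68 when members with macrophage or monocyte UMIs were left out (100 KO and 96 WT cells stayed). Red-cell RNA was thus spread over most KO barcodes, and the share depends on these choices. Among members, haemoglobin took a median of 0.755% of UMIs in KO and 0.398% in WT.

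UMIs of other cell types were present among the members. At least 5 UMIs of T and NK cell genes were carried by 10 KO cells (7.69%) and 16 WT cells (9.47%), and at least 20 UMIs of neutrophil granule genes by 1 KO and 8 WT cells. Also counted were at least 5 UMIs of 8 macrophage genes, the C1q genes among them, and at least 5 UMIs of 7 B-cell genes. The B-cell criterion was met by 0 KO and 0 WT members. In all, 12 KO members (9.23%) and 26 WT members (15.4%) carried 1 or more such signatures. The neutrophil marker list summed to 766 CPM in KO and 13587 CPM in WT, and 9 of its 11 measured genes were at least 2-fold lower in KO. Its Ly6g, a defining marker, had 0 UMIs in KO. Their part in the differences below was not tested.

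In all, 8797 genes had at least 20 UMIs over the cDC2 of both libraries. Of these, 251 (2.85%) were at least 2-fold higher in KO and 464 (5.27%) at least 2-fold lower, on the scale of log2 of CPM plus 1, and the median log2 ratio was -0.02. At 1.5-fold the shares were 9.57% higher and 13.4% lower. The gene lists below are read against these shares. The list of interferon-γ induced genes stood lowest, with 14 of 18 measured members at least 2-fold lower. MHC class I presentation (8 of 20), cell division (7 of 22) and NF-κB feedback (4 of 17) were also on the lower side, while oxidative phosphorylation had no gene past 1.5-fold among 25.

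**Figure D2:**
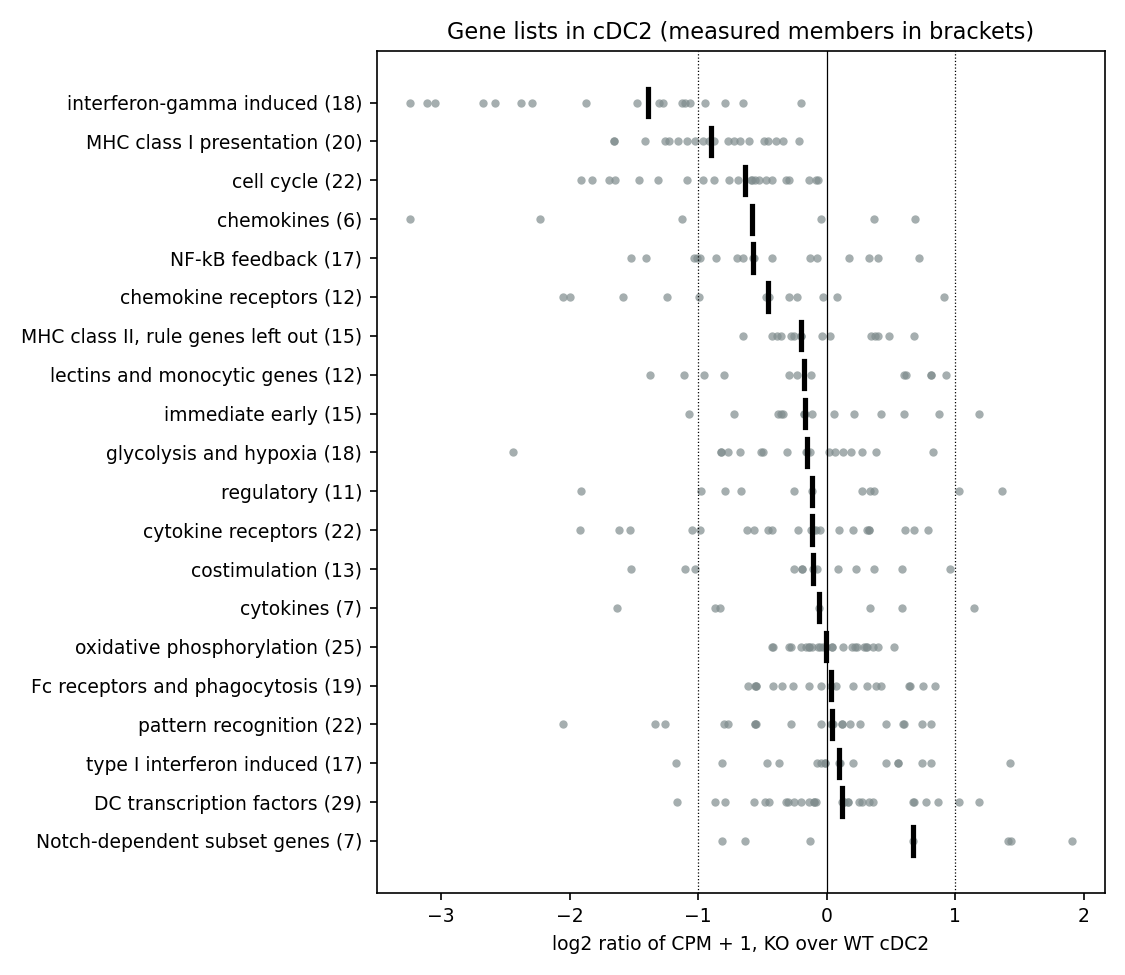
Log2 ratio of KO to WT CPM plus 1 in cDC2 for each measured gene of 20 functional lists (1 dot per gene, bar at the list's median), with dotted lines at 2-fold either way. Median ratios run from -1.39 for interferon-γ induced genes to 0.67 for the Notch-related cDC2 list.

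All 18 measured interferon-γ induced genes were lower in KO cDC2, with a median log2 ratio of -1.39, and 17 were at least 1.5-fold lower. The list holds 25 genes, of which 7 had too few UMIs. Summed over the list, KO cells had a median of 11.9 UMIs per 10000 UMIs of the cell (quartiles 7.55 to 16.5), and WT cells 34.4 (23.2 to 49.6). The interquartile ranges did not overlap. Without the 12 KO and 26 WT cells that carried UMIs of other cell types, the median log2 ratio was -1.55.

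Irf1, a transcription factor that interferon-γ induces early, was counted 89 UMIs in KO and 246 UMIs in WT cDC2, which was 101 CPM in KO (Poisson interval 81.2 to 124) and 212 CPM in WT (186 to 240.4), 2.1-fold lower in KO (interval 1.64 to 2.71). It was seen in 40.8% of KO and 60.9% of WT cells, and per 10000 UMIs it had a lowest, median and highest of 0, 0 and 21.1 in KO cells and of 0, 1.51 and 23 in WT cells. The ranges of single cells thus overlapped. Ly6a, the gene of the surface protein SCA-1, was counted 77 UMIs in KO and 887 UMIs in WT, and its level was 8.74-fold lower in KO (interval 6.92 to 11.2). A UMI of Ly6a was seen in 18.5% of KO and 70.4% of WT cells.

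The guanylate-binding proteins (GBPs), large GTPases that attack vacuoles of microbes, were lower in KO. Gbp2 was at 19.3 CPM in KO and 121 CPM in WT, 6.25-fold lower in KO (interval 3.77 to 11), and 76.5% of its KO UMIs came from 1 cell. Gbp3 was at 4.54 CPM in KO and 44.9 CPM in WT, Gbp4 at 7.95 CPM in KO and 56.1 CPM in WT, Gbp5 at 23.9 CPM in KO and 68.1 CPM in WT and Gbp7 at 25 CPM in KO and 49.2 CPM in WT. These paralogs are alike in sequence, so how reads were split among them is uncertain. The immunity-related GTPases, a second family with the same role, showed the same order. Iigp1 was at 20.5 CPM in KO and 104 CPM in WT (5.1-fold lower, interval 3.1 to 8.9), seen in 3 KO and 43 WT cells. Igtp was at 21.6 CPM in KO and 81.9 CPM in WT, Irgm1 at 40.9 CPM in KO and 103 CPM in WT and Irgm2 at 39.8 CPM in KO and 63 CPM in WT, the last with 1.58-fold the smallest difference of the 4.

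The CXCR3 ligands, chemokines that draw in activated T cells, came from few cells. All 11 Cxcl9 UMIs of KO cDC2 and all 56 Cxcl10 UMIs came from 1 cell each, while WT had 147 Cxcl9 UMIs in 22 cells and 162 Cxcl10 UMIs in 25 cells. In WT the cell with the most UMIs held 37.4% of Cxcl9 and 50% of Cxcl10, so their fold differences rest on those cells. Cd274, which encodes the inhibitory ligand PD-L1, was at 42 CPM in KO and 91.4 CPM in WT (2.17-fold lower), and Serpina3g, a protease inhibitor, at 39.8 CPM in KO and 97.5 CPM in WT. Socs1, the feedback inhibitor of the pathway, was at 17 CPM in KO and 30.2 CPM in WT, with 73.3% of its KO UMIs from 1 cell. Ciita, the class II transactivator and also a target of this pathway, differed least, at 682 CPM in KO and 784 CPM in WT (log2 ratio -0.20, 1.15-fold lower, interval 1.04 to 1.28). When the member with the most UMIs of each gene was left out of each library, the list's median was -2.20. Cxcl10 had a log2 ratio of -1.12 over all members and of -0.20 with at least 3 UMIs of Flt3, Zbtb46 and Cd209a required.

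The promoters of some of these genes are shown because the whole list was lower and the pathway acts through known motifs. Gamma-activated sites were searched as TTCNNNGAA, and IRF1 and related factors bind interferon-stimulated response elements, searched by their core, GAAA then NN then GAAA, on both strands. In the RefSeq promoter table (GRCm38.p6, the 250 bases before each start), 13 of the 18 measured genes were found, and Ly6a was among those not matched. The first motif was in 6 of them (46.2%) and the second in 9 (69.2%), against 8.13% and 3.46% of the 27025 genes of the table. Of 7020 measured genes of the table, 7.15% and 3.63% held them. The list was chosen as genes that interferon-γ induces, so these shares do not bear on the difference between KO and WT. A match is a run of letters and not a shown binding site. 5 promoters follow, 5′ to 3′ on the strand of the gene, with motif letters in capitals, and none of the matches in them overlap.

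Irf1 (chr11:53769764-53770013, strand +): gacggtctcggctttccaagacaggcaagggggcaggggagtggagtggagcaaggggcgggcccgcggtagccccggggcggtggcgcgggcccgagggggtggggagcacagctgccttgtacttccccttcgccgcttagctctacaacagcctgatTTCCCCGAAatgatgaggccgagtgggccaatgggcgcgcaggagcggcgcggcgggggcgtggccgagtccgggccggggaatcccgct
Gbp2 (chr3:142620413-142620662, strand +): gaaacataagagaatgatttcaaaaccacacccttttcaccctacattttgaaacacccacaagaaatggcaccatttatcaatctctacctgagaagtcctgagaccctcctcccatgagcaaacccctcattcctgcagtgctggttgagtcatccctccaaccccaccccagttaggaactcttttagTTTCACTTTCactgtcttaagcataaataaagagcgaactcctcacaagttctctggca
Igtp (chr11:58199306-58199555, strand +): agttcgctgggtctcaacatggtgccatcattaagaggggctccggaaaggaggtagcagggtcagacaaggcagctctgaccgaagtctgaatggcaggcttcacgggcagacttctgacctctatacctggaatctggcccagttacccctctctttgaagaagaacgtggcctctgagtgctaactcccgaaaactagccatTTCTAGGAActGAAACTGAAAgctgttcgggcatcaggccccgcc
Gbp5 (chr3:142496684-142496933, strand +): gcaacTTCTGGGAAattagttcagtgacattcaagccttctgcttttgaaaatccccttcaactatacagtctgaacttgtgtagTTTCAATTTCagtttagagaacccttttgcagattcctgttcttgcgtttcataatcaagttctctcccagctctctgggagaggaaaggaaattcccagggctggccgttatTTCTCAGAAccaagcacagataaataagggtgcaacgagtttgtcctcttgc
Cxcl10 (chr5:92348890-92349139, strand -): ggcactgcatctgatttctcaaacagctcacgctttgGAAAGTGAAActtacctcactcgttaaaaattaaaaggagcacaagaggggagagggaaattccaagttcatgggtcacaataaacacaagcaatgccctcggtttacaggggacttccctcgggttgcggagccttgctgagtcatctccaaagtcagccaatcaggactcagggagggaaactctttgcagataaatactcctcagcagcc

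The Irf1 window held 1 gamma-activated site 90 bases before the start, and a further annotated Irf1 start had no match. Gbp2 held 1 response element core 59 bases before its start and Cxcl10 1 at 213 bases. Igtp held both motifs, a gamma-activated site at 45 bases and a response element core at 34. Gbp5 held 2 gamma-activated sites, at 245 and 52 bases, and 1 response element core at 165. Cxcl9 and Cd274 held neither motif in this window, although both were lower in KO cDC2 by more than 2-fold.

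**Figure D3:**
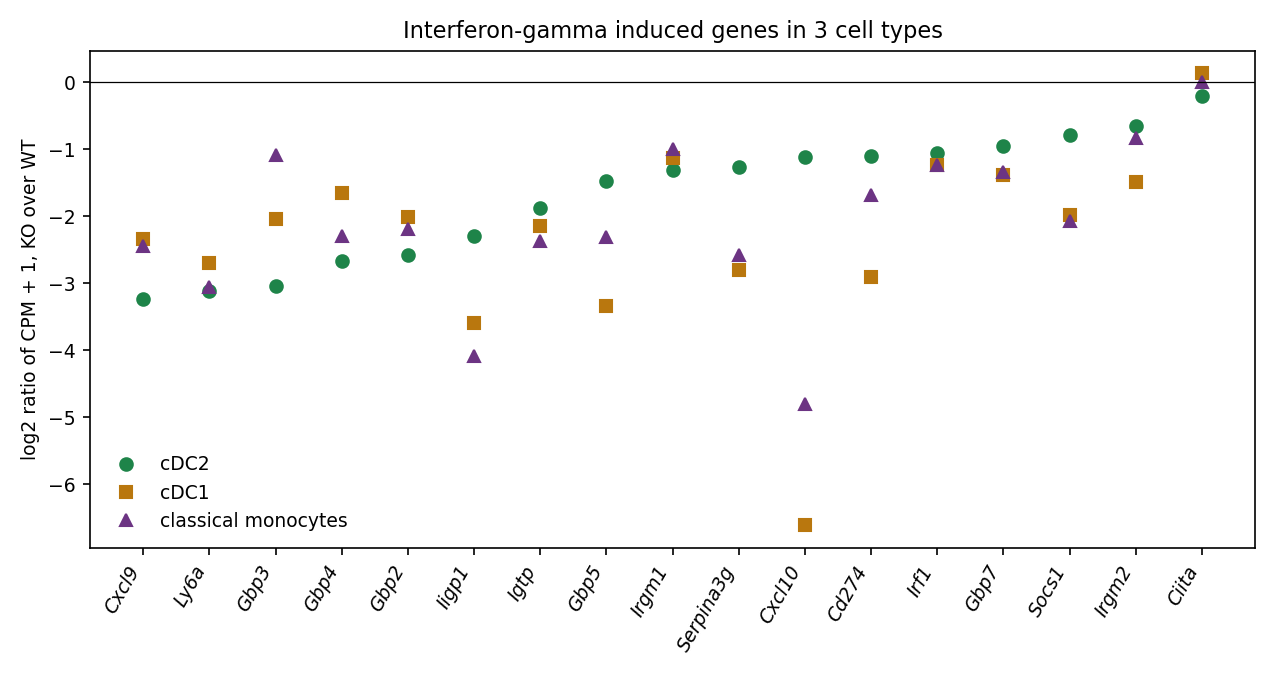
Log2 ratio of KO to WT CPM plus 1 for interferon-γ induced genes in cDC2, cDC1 and classical monocytes (1 point per gene and cell type). All genes shown lie below 0 in cDC2, with Ciita nearest to 0 at -0.20.

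The same genes are set side by side for the neighbouring cell types of the same libraries. In cDC1 18 of 19 measured members were at least 2-fold lower in KO (median -2.04) where 6.45% of all genes were, and in classical monocytes 19 of 22 (median -2.30) where 8.4% were. Irf1 was at 74 CPM in KO and 176 CPM in WT cDC1 and 127 CPM in KO and 301 CPM in WT monocytes. The lower level was therefore not particular to cDC2, and no test of a difference between the types exists with 1 library each.

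Genes of antigen presentation on MHC class I were lower in KO cDC2, whereas those of class II were near equal. All 20 measured class I genes were lower, 15 by at least 1.5-fold, with a median log2 ratio of -0.90. Their sum had a per-cell median of 62.3 UMIs per 10000 in KO (quartiles 48.5 to 77.5) and 113 in WT (89.96 to 127). The transactivator of the class I genes, Nlrc5, was at 75 CPM in KO and 168 CPM in WT, 2.24-fold lower in KO (interval 1.69 to 3.01).

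Among the heavy chains, H2-K1 was counted 1036 UMIs in KO and 2509 UMIs in WT and was 1.84-fold lower in KO (interval 1.71 to 1.98), while H2-D1 was at 913 CPM in KO and 1201 CPM in WT, 1.31-fold lower. The light chain B2m was at 1534 CPM in KO and 2448 CPM in WT, 1.6-fold lower in KO (interval 1.5 to 1.7). The non-classical H2-Q7 was at 111 CPM in KO and 354 CPM in WT and H2-T22 at 36.4 CPM in KO and 116 CPM in WT, 3.18-fold and 3.20-fold lower, the widest gaps of the list. H2-Q4, H2-Q6 and H2-Q7 are near-identical copies, so their separate values are uncertain. The immunoproteasome subunits, which cut proteins into class I peptides, were all close to 2-fold lower. Psmb8 was at 272 CPM in KO and 531 CPM in WT, Psmb9 at 258 CPM in KO and 549 CPM in WT and Psmb10 at 98.8 CPM in KO and 203 CPM in WT. Tap1, part of the peptide transporter, was at 106 CPM in KO and 254 CPM in WT, 2.41-fold lower in KO (interval 1.9 to 3.07).

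For class II, H2-Ab1, the β chain that the rule did not use, was counted 3188 UMIs in KO and 4137 UMIs in WT and stood at 3622 CPM in KO and 3568 CPM in WT, a ratio of 1.02 (interval 0.969 to 1.06). Of the 15 further class II genes, none passed 2-fold, and 1 was past 1.5-fold in each direction (median log2 ratio -0.20). The rule genes H2-Aa (5532 and 5995 CPM in KO and WT) and Cd74 (9067 and 9537 CPM) are a description of the selection. H2-Ab1 is induced together with them, so the selection on class II bears on it as well.

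Genes that type I interferon induces showed no common direction. Of 17 measured, 1 was at least 2-fold higher and 1 lower in KO, and the median log2 ratio was 0.10. Rsad2, the antiviral enzyme viperin, was at 34.1 CPM in KO and 12.1 CPM in WT (2.82-fold higher, interval 1.45 to 5.76), and Ifit2, which binds foreign RNA, at 19.3 CPM in KO and 44.9 CPM in WT (2.32-fold lower). Ifi27l2a was at 739 CPM in KO and 441 CPM in WT (1.68-fold higher, interval 1.49 to 1.89), and the ubiquitin-like modifier Isg15 was at 63.6 CPM in KO and 82.8 CPM in WT. The list's median was -1.10 when cells were thinned to 2000 UMIs before the rule. That setting left 88 KO and 110 WT members with fewer UMIs, so this median need not cover the same genes.

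Receptors for cytokines showed both directions. The interferon-γ receptor chain Ifngr1 was at 444 CPM in KO and 291 CPM in WT (1.53-fold higher, interval 1.32 to 1.77), and the second chain Ifngr2 at 96.6 CPM in KO and 103 CPM in WT. Il10ra, the receptor chain for the inhibitory cytokine IL-10, was at 314 CPM in KO and 181 CPM in WT (1.73-fold higher, interval 1.44 to 2.08). At least 2-fold lower were 4 of 22 genes. These were Kit, the stem cell factor receptor, at 102 CPM in KO and 212 CPM in WT (2.08-fold, interval 1.62 to 2.67), the IL-3 receptor β chain Csf2rb2 at 9.09 CPM in KO and 37.1 CPM in WT, the IL-18 receptor gene Il18r1 at 20.5 CPM in KO and 64.7 CPM in WT and the decoy IL-1 receptor gene Il1r2 at 13.6 CPM in KO and 41.4 CPM in WT. Kit was seen in 36.9% of KO and 55.6% of WT cells.

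NF-κB feedback genes, which that pathway induces to limit itself, had a median log2 ratio of -0.57 over 17 measured, and 8 were at least 1.5-fold lower against 1 higher. The inhibitor Nfkbia was at 183 CPM in KO and 486 CPM in WT, 2.65-fold lower in KO (interval 2.22 to 3.18). Tnfaip3, the deubiquitinase A20, was at 20.5 CPM in KO and 42.3 CPM in WT, and Bcl3, a nuclear member of the inhibitor family, at 48.9 CPM in KO and 101 CPM in WT. Nfkbiz went the other way, at 95.4 CPM in KO and 57.8 CPM in WT. The adhesion ligand Icam1, which also is on the list of costimulatory genes, was at 36.4 CPM in KO and 106 CPM in WT, 2.92-fold lower in KO (interval 1.96 to 4.45).

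Ligands that cDC2 show to T cells were mixed. CD40, through which helper T cells license dendritic cells, had its gene at 29.5 CPM in KO and 61.2 CPM in WT. Cd80 and Cd86, the ligands of CD28, were at 71.6 and 55.2 CPM and at 135 and 116 CPM in KO and WT. Havcr2, the inhibitory receptor gene TIM-3, was higher at 256 CPM in KO and 131 CPM in WT (1.95-fold, interval 1.58 to 2.41). In all 3 of 13 measured genes of the list, Icam1, Cd40 and Cd274, were at least 2-fold lower and none higher.

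Cytokine transcripts were few, with 7 of 19 genes measured. Il18 was at 43.2 CPM in KO and 19 CPM in WT, Il1b at 107 CPM in KO and 70.7 CPM in WT and Tnf at 11.4 CPM in KO and 21.6 CPM in WT, and the IL-15 presenting chain Il15ra at 6.82 CPM in KO and 23.3 CPM in WT. Among chemokines, whose 6 measured genes had a median log2 ratio of -0.58 that turned to 0.051 without members with macrophage or monocyte UMIs, Cxcl16 was at 4.54 CPM in KO and 25 CPM in WT and Ccl5, which draws in T cells, at 307 CPM in KO and 191 CPM in WT. Of 12 receptors and homing genes measured, 4 were at least 2-fold lower, among them Ccr1 (5.68 and 26.7 CPM in KO and WT), Ccr6 (7.95 and 25.9 CPM) and Itgae (6.82 and 30.2 CPM). Gpr183 (EBI2), the oxysterol receptor that positions cDC2 in lymphoid tissue, was higher at 158 CPM in KO and 83.7 CPM in WT (1.89-fold, interval 1.45 to 2.47). Of the microbe sensors, 3 of 22 were at least 2-fold lower, namely Sting1 (47.7 and 116 CPM), Clec4e (5.68 and 26.7 CPM) and Tlr4 (7.95 and 21.6 CPM).

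Of the transcription factors that shape dendritic cells, Irf8 was lower in KO cDC2, at 124 CPM in KO and 279 CPM in WT (2.25-fold, interval 1.81 to 2.82), and Irf4, on which cDC2 depend, was higher, at 43.2 CPM in KO and 23.3 CPM in WT (1.85-fold, interval 1.1 to 3.16). Ahr, the aryl hydrocarbon receptor, was at 71.6 CPM in KO and 34.5 CPM in WT, the orphan nuclear receptor Nr4a1 at 128 CPM in KO and 56.1 CPM in WT and Runx2 at 124 CPM in KO and 227 CPM in WT. Runx2 is also on the list of plasmacytoid dendritic cell markers, whose 6 measured genes were all lower in KO (median log2 ratio -0.63). The part of such cells in these values was not tested. Id2, an inhibitor of helix-loop-helix transcription factors, was at 669 CPM in KO and 1160.1 CPM in WT (1.73-fold lower, interval 1.57 to 1.91). Klf4, which acts in cDC2 development, was at 103 CPM in KO and 123 CPM in WT. In cDC1 Irf8 was at 1860.1 CPM in KO and 1865 CPM in WT, and in monocytes at 179.9 CPM in KO and 359 CPM in WT, so monocytes too had less in KO, and cDC1 had near equal levels. After thinning to 2000 UMIs before the rule, the log2 ratio of Irf8 in cDC2 was -0.30.

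Genes that mark subsets of cDC2 differed by subset list. In the list of the Notch-dependent subset, 3 of 7 measured genes were at least 2-fold higher in KO. Clec4a4, the lectin DCIR2 that marks this subset in spleen, was at 59.1 CPM in KO and 21.6 CPM in WT (2.74-fold, interval 1.67 to 4.61), the Notch target Hes1 at 31.8 CPM in KO and 7.76 CPM in WT (4.1-fold, interval 1.88 to 9.87), and the tetraspanin Cd81 at 27.3 CPM in KO and 9.49 CPM in WT. Ltb (lymphotoxin β), also of that list, was at 97.7 CPM in KO and 153 CPM in WT and Cd4 at 29.5 CPM in KO and 52.6 CPM in WT, so the list was not uniform. The list's median of 0.67 turned to -0.38 when 100 UMIs were required of a gene and to -1.35 after thinning to 2000 UMIs before the rule, which also put Clec4a4 under 2-fold (log2 ratio 0.82). In both settings the median need not cover the same genes. The Notch pathway gene Dtx1 is described with the named genes below.

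In the list of lectins and monocyte-related genes, Clec10a, a galactose-binding lectin, was at 30.7 CPM in KO and 67.3 CPM in WT (2.19-fold lower, interval 1.4 to 3.53) and Clec12a at 30.7 CPM in KO and 81.1 CPM in WT. For Clec10a the log2 ratio was -0.12 without members with macrophage or monocyte UMIs, and turned to 0.43 after thinning to 2000 UMIs before the rule. The DCIR family members Clec4a1, Clec4a2 and Clec4a3 were higher, at 142 and 92.3 CPM, 82.9 and 43.1 CPM and 131 and 74.2 CPM in KO and WT. Lysozyme (Lyz2) was at 1066 CPM in KO and 2066 CPM in WT. Itgax, the CD11c gene, was at 297 CPM in KO and 189 CPM in WT (1.57-fold higher, interval 1.31 to 1.89), and Fcgr2b, the inhibitory Fc receptor, at 99.98 CPM in KO and 55.2 CPM in WT. Ifitm1, an interferon-induced membrane protein and a cDC2 marker, was at 211 CPM in KO and 470.1 CPM in WT (2.22-fold lower, interval 1.88 to 2.64).

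Of 15 measured classical monocyte markers, 1 was at least 2-fold higher in KO cDC2 and 2 were at least 2-fold lower, and their median log2 ratio was -0.30. The higher one was Vcan, the matrix proteoglycan versican, counted 22 UMIs in KO and 4 UMIs in WT. Of the lower ones, Ly6c2, the surface marker of classical monocytes, was at 55.7 CPM in KO and 270 CPM in WT (4.85-fold lower, interval 3.58 to 6.69). The other had the lowest log2 ratio of the list, -2.71. The lectin Chil3 was lower by just under 2-fold, at 134 CPM in KO and 266 CPM in WT. The classical list summed to 4121 CPM in KO and 5973 CPM in WT. In classical monocytes themselves the list summed to 15312.5 CPM in KO and 16265.9 CPM in WT. Ly6c2, which their rule uses, was there at 981 CPM in KO and 1875 CPM in WT, a description of those cells. Of 11 measured nonclassical monocyte markers, 5 were at least 2-fold higher in KO and 1 lower. Adgre4, an adhesion G-protein receptor, was at 94.3 CPM in KO and 25.9 CPM in WT (3.64-fold, interval 2.37 to 5.73), and Ace, the angiotensin-converting enzyme, at 31.8 CPM in KO and 12.1 CPM in WT. The transcription factor Pou2f2 was higher by just under 2-fold, at 383 CPM in KO and 193 CPM in WT, while Pglyrp1 was lower at 96.6 CPM in KO and 227 CPM in WT. Of 6 measured macrophage markers, 3 were at least 2-fold higher (C1qa 26.1 and 3.45 CPM, Adgre1 111 and 54.3 CPM, Apoe 127 and 37.1 CPM in KO and WT), on low sums of 319 and 163 CPM. A single KO cell held 95.7% of the 23 C1qa UMIs of KO cDC2. Without members with UMIs of other cell types, the log2 ratio of Apoe was 2.43, against 1.75 with them. The part of admixed monocytes or macrophages in these values was not tested.

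The genes with the widest differences outside markers of other cell types were named by rule, 15 in each direction. Adgrl3, the adhesion G-protein-coupled receptor latrophilin 3, had the most UMIs of those higher in KO, with 986 UMIs in KO and 274 UMIs in WT cDC2, 1120.3 CPM in KO (Poisson interval 1051 to 1192) and 236 CPM in WT (209 to 266), 4.74-fold higher in KO (interval 4.14 to 5.44). It was seen in 74.6% of KO and 21.9% of WT cells and per 10000 UMIs had a lowest, median and highest of 0, 8.27 and 52.5 in KO cells and of 0, 0 and 43.6 in WT cells. With cells thinned to 1000 UMIs (130 KO and 164 WT cells left), the share was 52.3% in KO and 13.4% in WT, against 0.774% and 0% of KO and WT B cells, which should lack it. Before thinning the median depth was 6657 and 6464 UMIs in cDC2 and 1898 and 2619 UMIs in B cells. In cDC1 it was at 47.6 CPM in KO and 2.61 CPM in WT, and in classical monocytes at 173 CPM in KO and 8.35 CPM in WT. Thus its highest level among the 3 types was in cDC2 of either library.

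Frmd5, a FERM domain protein, followed a like pattern, with 229 UMIs in KO and 57 UMIs in WT, 5.29-fold higher in KO (interval 3.94 to 7.2). After thinning, 15.4% of KO and 1.83% of WT cDC2 held a UMI, against 0.29% and 0.482% of KO and WT B cells. Rtn1, a marker and not one of the 30, was 1.8-fold higher in KO (interval 1.58 to 2.06), and after thinning 44.6% of KO and 25.6% of WT cDC2 held a UMI, against 0.774% and 0.804% of B cells. Skint3, of the butyrophilin-like Skint family, was at 141 CPM in KO and 29.3 CPM in WT, 4.8-fold higher in KO (interval 3.26 to 7.24), and was seen in 46.9% of KO and 12.4% of WT cells. All 3 genes were thus carried by a larger share of KO cells, not by a few of them.

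Lpar1, a receptor for lysophosphatidic acid, was counted 50 UMIs in KO and 8 UMIs in WT, 8.23-fold higher in KO (interval 3.87 to 20.1), in 24 KO and 7 WT cells. Dtx1, an E3 ligase of the Notch pathway (Deltex), was counted 91 UMIs in KO and 20 UMIs in WT, 5.99-fold higher in KO (interval 3.66 to 10.3), in 29 KO and 6 WT cells. Dtx1 was also higher in KO in T cells (122 CPM in KO and 45.5 CPM in WT) and B cells (83.2 CPM in KO and 48.5 CPM in WT). Fgfr1, a fibroblast growth factor receptor, was at 116 CPM in KO and 27.6 CPM in WT, 4.2-fold higher in KO (interval 2.8 to 6.46). Slc12a2, the sodium, potassium and chloride cotransporter NKCC1, was at 105 CPM in KO and 36.2 CPM in WT, 2.89-fold higher in KO (interval 1.98 to 4.26), and Arhgap6, a GTPase-activating protein, at 205 CPM in KO and 68.1 CPM in WT, 3.001-fold higher in KO (interval 2.29 to 3.96). For Cd300ld, a member of the CD300 receptor family, the levels were 68.2 CPM in KO and 19.8 CPM in WT.

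For some of the named genes other cells or single cells weigh on the value. Zbtb16, the transcription factor PLZF of innate-like T cells, was at 70.4 CPM in KO and 17.3 CPM in WT (4.08-fold higher, interval 2.43 to 7.14). Its thinned share was 6.15% in KO and 2.44% in WT cDC2, against 27.3% and 4.03% of KO and WT T cells and 2.22% and 0% of B cells. Cacna1e, a calcium channel subunit, was at 75 CPM in KO and 16.4 CPM in WT cDC2 but at 373 CPM in KO and 379 CPM in WT B cells, and the phosphodiesterase gene Pde3b at 92 CPM in KO and 31.1 CPM in WT cDC2 but 1072 CPM in KO and 318 CPM in WT T cells. The part of T- or B-cell RNA in these was not tested. Of the WT UMIs of Plcb1, a phospholipase C, 59.5% came from 1 cell (101 CPM in KO and 31.9 CPM in WT). The remaining named genes higher in KO were Adam22, an ADAM protein without protease activity (76.1 and 18.1 CPM in KO and WT), and Stxbp6, a syntaxin-binding protein (60.2 and 20.7 CPM). After thinning to 2000 UMIs before the rule, Cacna1e (0.20), Pde3b (0.68), Plcb1 (0.84) and Arhgap6 (0.84) had log2 ratios under 2-fold.

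**Figure D4:**
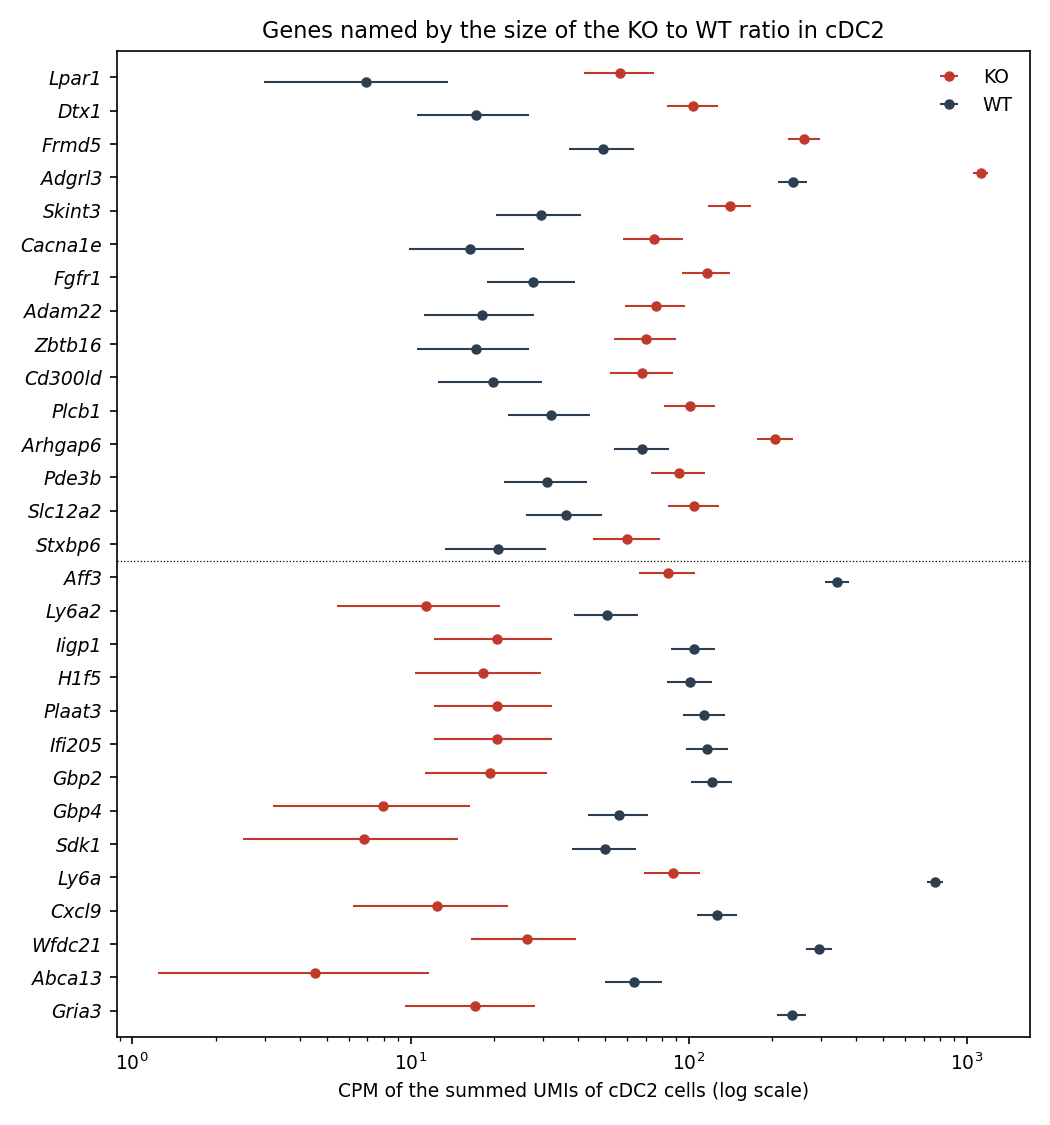
CPM on a log axis of the genes named as highest or lowest in KO relative to WT cDC2, with exact Poisson 95% intervals, KO and WT as separate points. Adgrl3 reads 1120.3 CPM in KO and 236 CPM in WT, and intervals of Abca13, Gria3 and other genes seen in few cells do not cover how unevenly cells hold them.

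Apart from the interferon-γ genes, the genes named as lower in KO were of 2 kinds, seen in many cells or held by few. Ifi205, of the interferon-inducible p200 family, was at 20.5 CPM in KO and 116 CPM in WT, 5.69-fold lower in KO (interval 3.47 to 9.9), in 6 KO and 54 WT cells. Plaat3, a phospholipase and acyltransferase, was at 20.5 CPM in KO and 114 CPM in WT, 5.57-fold lower, in 17 KO and 77 WT cells. The log2 ratio of Ifi205 was -0.84 after thinning to 2000 UMIs before the rule. Ly6a2, a neighbour of Ly6a in the same family, was at 11.4 CPM in KO and 50.9 CPM in WT, and how reads were split between such copies is uncertain.

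Gria3, an AMPA-type glutamate receptor subunit, was counted 15 UMIs in KO and 272 UMIs in WT, 13.8-fold lower in KO (interval 8.2 to 24.9), but in 6 KO and 29 WT cells. It was also lower in KO in cDC1 (0 CPM in KO and 62.5 CPM in WT) and classical monocytes (13.3 CPM in KO and 159 CPM in WT). Abca13, a lipid transporter of the ABC family, was at 4.54 CPM in KO and 63.8 CPM in WT, in 2 KO and 18 WT cells, and the adhesion protein Sdk1 at 6.82 CPM in KO and 50.03 CPM in WT, in 2 KO and 9 WT cells. The linker histone H1f5 was at 18.2 CPM in KO and 101 CPM in WT, in 10 KO and 21 WT cells. Aff3, a nuclear protein of the AF4 family, was at 84.1 CPM in KO and 342 CPM in WT (4.06-fold lower, interval 3.16 to 5.28), in 26 KO and 59 WT cells, while B cells held 2060.5 CPM in KO and 1777 CPM in WT. Wfdc21, a secreted protein of the WAP family, was at 26.1 CPM in KO and 293 CPM in WT, but after thinning 1.54% of KO and 11% of WT cDC2 held a UMI, against 3.29% and 12.4% of KO and WT B cells. Before thinning it was seen in 3.85% of KO and 27.2% of WT cells. Since the thinned share of cDC2 is at or below that of B cells in both libraries, no cDC2 expression of Wfdc21 is read from it. The highest cell held 17.2 Wfdc21 UMIs per 10000 in KO and 76.7 in WT. Without members with UMIs of other cell types, the log2 ratio was -2.27 for Wfdc21, -4.22 for Abca13 and -1.54 for Aff3, against -3.44, -3.55 and -2.01 with them. With the estimated free RNA subtracted, all 89 single genes recomputed, the named genes among them, stayed within their counting interval. Beyond these alternatives, the part of free RNA and of other cells in these values was not tested.

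**Figure D5:**
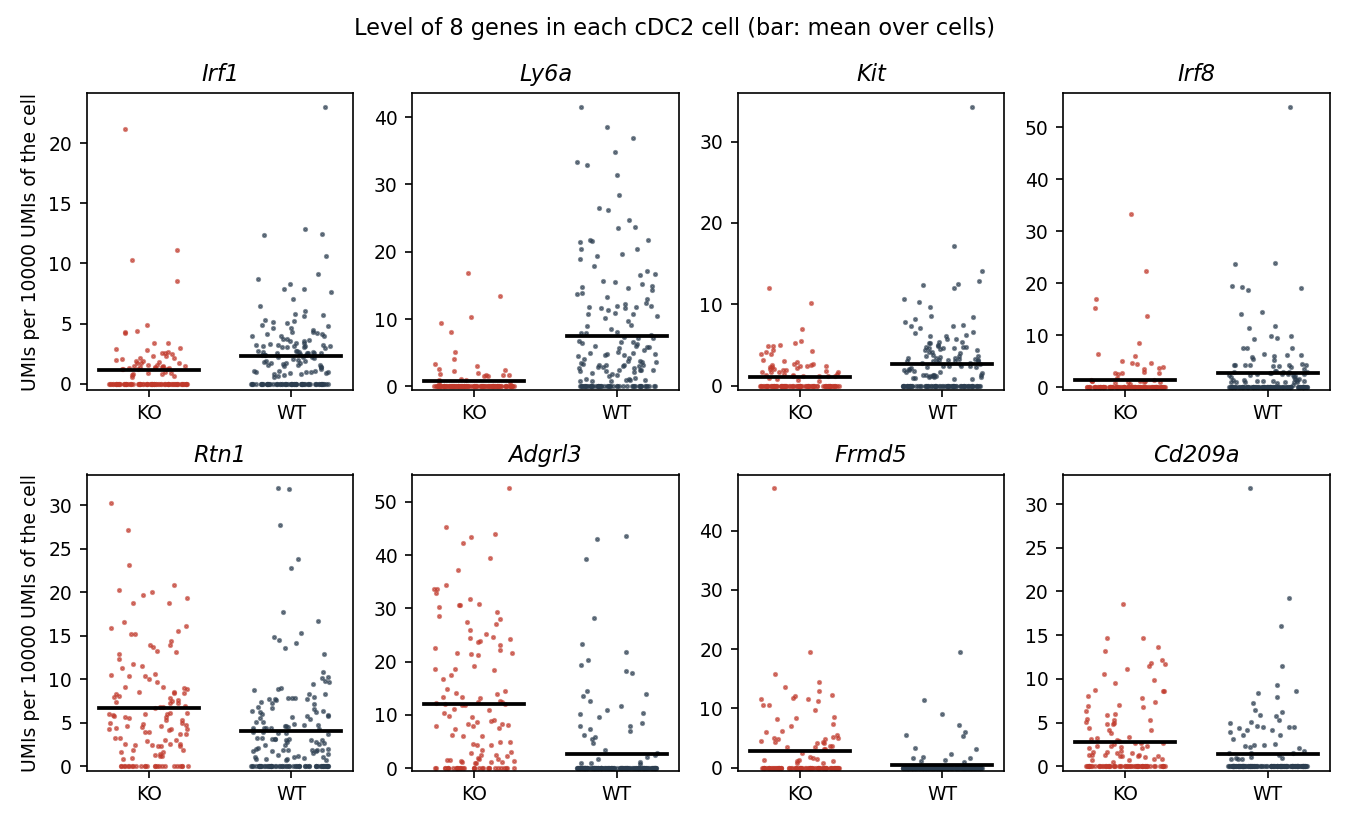
UMIs per 10000 UMIs of each cDC2 for 8 genes, 1 point per cell (KO left of WT) with a bar at the mean over cells. Adgrl3 a median of 8.27 in KO and 0 in WT.

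Cell division genes were lower in KO cDC2, all 22 in direction and 7 by at least 2-fold (median log2 ratio -0.64). Stmn1, which destabilises microtubules, was at 93.2 CPM in KO and 304 CPM in WT, 3.26-fold lower in KO (interval 2.56 to 4.2). Mki67, the proliferation marker, was at 105 CPM in KO and 178 CPM in WT and Top2a, topoisomerase II, at 134 CPM in KO and 216 CPM in WT. Thinning to 2000 UMIs before the rule put Stmn1 at a log2 ratio of -0.59 and turned Mki67 to 0.39, while the list's median stayed between -0.88 and -0.48 over all alternatives. With cells thinned to 2000 UMIs, 17 of 122 KO cells (13.9%, exact binomial interval 8.33 to 21.4) and 36 of 149 WT cells (24.2%, interval 17.5 to 31.8) held a UMI of Mki67 or Top2a. These intervals overlapped. The same shares were 24.7% in KO and 31.6% in WT cDC1, and 2.33% in KO and 19.9% in WT classical monocytes. The division list had a median log2 ratio of -0.06 in cDC1 and -3.25 in monocytes, so cDC2 lay between them.

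Respiratory chain genes were near equal. The 25 oxidative phosphorylation subunits had a median log2 ratio of -0.01, none past 1.5-fold. Of 18 genes of glycolysis and hypoxia, 5 were at least 1.5-fold lower and 1 higher. Among them Gapdh was at 376 CPM in KO and 667 CPM in WT and Hk3, a hexokinase, at 6.82 CPM in KO and 41.4 CPM in WT, the one gene past 2-fold.

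Members with and without a Cd209a UMI were also compared within each library. KO held 70 with and 60 without (median 7520 and 5597 UMIs), and WT 44 and 125 (median 6481.5 and 6081), so the cells with Cd209a were somewhat deeper in both libraries. Of 6036 genes measured in both libraries, 6 were at least 2-fold higher in the cells with Cd209a in KO and in WT alike, and 37 at least 2-fold lower. Cd209a itself is among the measured genes and is higher by the choice of the cells. The share of genes past 2-fold in KO was 3.81% higher and 3.31% lower in cells with Cd209a, and in WT 1.74% and 8.05%. How many genes would be shared by both libraries from these shares alone was not tested. The lectin Clec10a was at 43.9 CPM with and 11.2 CPM without Cd209a in KO, and 104 and 54.6 CPM in WT. Irf4 was at 53.4 CPM with and 28.1 CPM without Cd209a in KO, and 36.9 and 18.6 CPM in WT. Lgals9, the galectin that binds TIM-3, was at 63 CPM with and 33.7 CPM without Cd209a in KO, and 111 and 40.6 CPM in WT. Each level was higher with Cd209a in both libraries. Genes here and in the next paragraph could be named for the size of this same difference. Counting intervals are not given for these levels, so no difference beyond counting error is claimed.

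Cells without Cd209a carried more Fabp5, a fatty acid carrier, at 5.72 CPM with and 95.5 CPM without Cd209a in KO, and 10.1 and 54.6 CPM in WT. Mgst1, a glutathione transferase, was at 13.4 CPM with and 39.3 CPM without Cd209a in KO, and 20.1 and 63.8 CPM in WT, and Dtx1 at 40.1 CPM with and 197 CPM without Cd209a in KO, and 0 and 23.2 CPM in WT.

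The differences between genotypes were also computed within each kind of cell. Cd209a is a gene of the rule and the cells with it were deeper than those without, so these values are a description. Among members with Cd209a, the interferon-γ list had a median log2 ratio of -1.34 in KO over WT (13 of 17 at least 2-fold lower, where 3.96% of all genes were), and among members without it -1.97 (12 of 18, where 9.27% were). In the same order, the class I list was at -0.96 and -0.85. Cell division genes were at -0.11 with Cd209a (16 genes measured) and -1.28 without (21 genes). Adgrl3 was 5.76-fold and 3.98-fold higher in KO cells with and without Cd209a, and Ly6a 6.68-fold and 28.9-fold lower.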

How the data were processed

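Per the file headers, both deposited matrices hold whole-number UMI counts per gene and barcode, to which the authors applied no normalization. The submitters' processing notes give Cell Ranger 6.0.1, Seurat 4.3.0 and genome mm39, whereas the header of each matrix gives Cell Ranger 8.0.1. The matrices cover 33696 genes. With 1 library per genotype, no test was made.

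Barcodes were kept with at least 200 genes, at most 20% mitochondrial and at most 10% haemoglobin UMIs. UMIs of members were summed per library and scaled to CPM, with exact Poisson intervals. Ratios of levels carry exact conditional binomial intervals and shares of cells Clopper-Pearson ones. The ratio of KO to WT shares carries a log-normal counting interval. A pseudocount of 1 CPM was added before log2 ratios (KO over WT) were taken, for genes with at least 20 summed UMIs, and a gene counted as higher or lower past 2-fold. For shares of cells with a UMI beside free RNA, cells were thinned to 1000 UMIs, which left out 0 KO and 5 WT members. Free RNA was estimated from S100a8 and S100a9 in the lower 90% of B cells, at 81.3 UMIs per cell in KO and 184 in WT. Doublets were not removed, and leaving out barcodes marked by Scrublet was an alternative.

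The members, the 20 functional and 16 marker lists and the comparisons were chosen with earlier results of these data known. The genes named were 15 in each direction with the widest log2 ratios, of those that reached 50 UMIs, 50 CPM and 5% of cells in the library where they were higher and whose interval left out equality. Not eligible were genes of the rule, markers of other cell types, sex genes, predicted genes and those of ribosomes, mitochondria, haemoglobin, immunoglobulins and T-cell receptors. Some of these genes are not reported here. Genes of the lists and markers could also be named, as could the 10 highest and 10 lowest by the smaller of the KO and WT folds between members with and without Cd209a. Promoters came from the RefSeq table of GRCm38.p6, another build than that of the matrices, and were matched by symbol.

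The tools were Python 3.11.15 with numpy 2.4.6, scipy 1.17.1, pandas 2.3.3 and scanpy 1.11.5, and R 4.3.3 with edgeR 4.0.16 and DESeq2 1.42.0 for other scalings of the counts. The ratios and their intervals were tried on simulated Poisson sums per gene. That simulation held no single cells, member rule, UMIs of other cells or UMIs that come together in few cells. The alternatives were those scalings, pseudocounts of 0.1 and 10, no minimum count or 100, stricter filters on cells and Scrublet. Further ones were stricter rules for members, thinning to 2000 UMIs before the rule and subtraction of the estimated free RNA. For the share of cDC2, a denominator of barcodes with at least 500 genes was also used.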

Additional observations from a re-analysis of the deposited data

How the results depend on the processing

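No paired analysis was possible because each genotype has 1 library, and for the same reason no library could be left out. A few alternatives were added once the data had been seen: leaving out members with UMIs of other cell types, weighting cells equally, leaving out the member with most UMIs of each gene, and totals without haemoglobin and neutrophil genes. Over 18 alternatives the median log2 ratio (KO over WT) stayed between -2.20 and -1.18 for interferon-γ induced genes, the lowest without the member with most UMIs of each gene, between -0.96 and -0.74 for MHC class I and between -0.88 and -0.48 for cell division. The number of genes at least 2-fold higher in KO was 89 with a pseudocount of 10, 1663 with no minimum count and 63 with a minimum of 100, and the number of genes at least 2-fold lower was 182, 1576 and 99, and 203 when cells were thinned to 2000 UMIs before the rule. That thinning also put type I interferon genes at -1.10, chemokines at 0.62 and the Notch-related list at -1.35. The lectin and monocyte-related list was at 0.37 under it, Clec10a at 0.43 and Mki67 at 0.39. The thinning left 88 KO and 110 WT members with 176000 and 220000 UMIs, so list medians need not cover the same genes. Of 89 single genes recomputed under it, 49 moved beyond their counting interval, 2 whose interval lay on 1 side of 0 turned in sign (Clec10a and Mki67) and 38 stayed within the interval. Without members with macrophage or monocyte UMIs, 32 of 88 moved beyond it. Chemokines, 6 genes, were also at -0.10 with at least 3 UMIs of Flt3, Zbtb46 and Cd209a, at 0.051 without members with macrophage or monocyte UMIs, at -0.044 with a minimum count of 100 and at -1.46 without the member with most UMIs of each gene. The Notch-related list was at -0.38 with a minimum count of 100, and the lectin list at -0.54 without members with UMIs of other cell types and at 0.51 with no minimum count. The log2 ratio of shares was 2.67 with at most 1% haemoglobin, 0.68 without members with macrophage or monocyte UMIs and 0.76 after thinning. The cause of these shifts was not tested, beyond the fewer or more genes that a count threshold leaves. TMM and DESeq2 scaling moved the median of all genes by 0.02. Genes with few UMIs, such as most cytokines and chemokines, are limited by depth, and so are all shares of the 299 cells.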

Other observations

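Bank1, a scaffold protein of B-cell receptor signalling that stands on the B-cell marker list, was counted 119 UMIs in KO and 26 UMIs in WT cDC2, 6.03-fold higher in KO (interval 3.92 to 9.61). After thinning, 10% of KO and 0.61% of WT cDC2 held a UMI, against 93.2% and 88.9% of KO and WT B cells. Ighm, the μ heavy chain and another gene of that list, was counted 119 UMIs in KO and 198 UMIs in WT, at 135 CPM in KO and 171 CPM in WT. Other markers of the list had few UMIs: Ighd had 4 UMIs in KO and 10 in WT, Cd79b had 6 UMIs in KO and 6 in WT, Ralgps2 16 in KO and 13 in WT, Ebf1 5 in KO and 5 in WT, Pax5 4 in KO and 0 in WT, Fcer2a 2 in KO and 0 in WT, and Fcmr 1 in KO and 0 in WT, while Cd79a and Ms4a1 were 0 by the rule. No KO cell held more than 8.4% of the Bank1 UMIs of its library. In cDC1 Bank1 was at 23.8 CPM in KO and 7.82 CPM in WT and in classical monocytes at 71.4 CPM in KO and 10.8 CPM in WT.

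Genes that restrain dendritic cells lay in both directions. Of 11 measured, 2 were at least 2-fold higher in KO, Ahr and the nuclear receptor Pparg (19.3 CPM in KO and 6.9 CPM in WT, on 17 and 8 UMIs). Lilrb4b, an inhibitory receptor, was at 6.82 CPM in KO and 28.5 CPM in WT and its neighbour Lilrb4a at 37.5 CPM in KO and 75 CPM in WT, and reads may be split between these copies. Tgfb1 was at 229.5 CPM in KO and 182 CPM in WT and the inhibitory receptor Pirb at 215 CPM in KO and 166 CPM in WT. Il10 had 0 UMIs in KO and 1 in WT, so no difference was detectable at this depth. Immediate early genes, known to rise when tissue is dissociated, had a median log2 ratio of -0.17. Fos was at 11.4 CPM in KO and 25 CPM in WT and Junb at 201 CPM in KO and 226 CPM in WT, while Dusp1 was at 75 CPM in KO and 40.5 CPM in WT. Within the phagocyte oxidase, Cybb was at 443 CPM in KO and 593 CPM in WT (1.34-fold lower, interval 1.18 to 1.52) and Ncf1 at 119 CPM in KO and 175 CPM in WT (1.47-fold lower, interval 1.15 to 1.88).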
